A study of Rattus norvegicus with 3 samples.

Results

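Intercalated cells are the acid- and base-secreting cells that lie between the principal cells of the kidney collecting duct. The transcripts considered here are those of 7 of the 4388 genes named on the array, Slc4a1, Car2, Kit, Insrr, Atp12a, Atp6ap1 and Atp6v0e1. They were followed through every array probe annotated to exactly 1 of these symbols. This gave 13 of the 5760 probes: 3 each for Kit and Insrr, 2 each for Slc4a1 and Atp6v0e1, and 1 each for Car2, Atp12a and Atp6ap1. Total RNA of the kidney inner medulla of rats treated with lithium (Li) for 1 month was set against that of control rats, in a study of lithium-induced nephrogenic diabetes insipidus. Each of 3 two-colour arrays carried lithium RNA in red and control RNA in green, with no dye swap, so an effect of the dyes and one of lithium cannot be told apart for any gene. On arrays 1 and 2 each channel was a pool of 2 rats, and on array 3 it was 1 rat. The sources used here give no strain, age, lithium dose or diet.

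In the type A cell, carbonic anhydrase forms protons and bicarbonate from carbon dioxide and water. The vacuolar proton pump (V-ATPase) and the H,K-ATPase pump the protons into the urine, and an anion exchanger of the Slc4 family returns the bicarbonate to the blood. Type B cells work the other way round and secrete bicarbonate. Lithium is known to impair urinary acidification and, in rats, to raise the share of intercalated cells in the collecting duct.

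The values are log ratios whose base was not stated. They were centred on the median of each array and are read as lithium over control, a likely direction given that lithium was channel 1, which no source states outright. All signs would turn if it were the other way round. Correlations between the arrays across the 4250 probes with a value on all 3 were 0.44 (arrays 1 and 2), 0.49 (arrays 1 and 3) and 0.15 (arrays 2 and 3). Ratios carry no level, so neither the abundance of a transcript nor the presence of any cell type in the tissue could be checked with its markers. In whole tissue, a change in the number of cells of a type and one in RNA per cell cannot be told apart. The 3 arrays limit the precision.

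None of the 7 genes passed the test at any probe that entered it. Among the 9 probes with a value on all 3 arrays, Atp6ap1, Slc4a1, Kit and Insrr each had 1 probe above 0 on every array, with mean log ratios from 0.12 to 0.15. Atp12a was below 0 on every array with a mean of −0.14. Car2, the tested Atp6v0e1 probe and the other Kit probes had means from 0.013 to 0.067, with at least 1 array at or below 0. By limma with Benjamini-Hochberg adjustment over all 4250 probes, 0 of the 9 had an adjusted p under 0.05, against 0.259% of all probes tested (11 probes). Their adjusted p-values ran from 0.187 to 0.93. At an unadjusted p under 0.05, 5 of the 9 passed, 4 higher and 1 lower, against 17.3% of all probes tested, or 10.2% higher and 7.11% lower. That count changed with the processing. It was 3 without centring, where 713 of all 4250 probes passed, and 4 with print blocks centred, where 868 did. With arrays scaled to the same spread it was again 5, and with probes of 1 gene averaged 2 of 7 passed. Above 0 on all 3 arrays were 4 of the 9, against 24.8% of all probes tested, and below 0 on all 3 was 1, against 13.6%. The other 4 probes had no value on array 3 and did not enter this test.

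**Figure D1:**
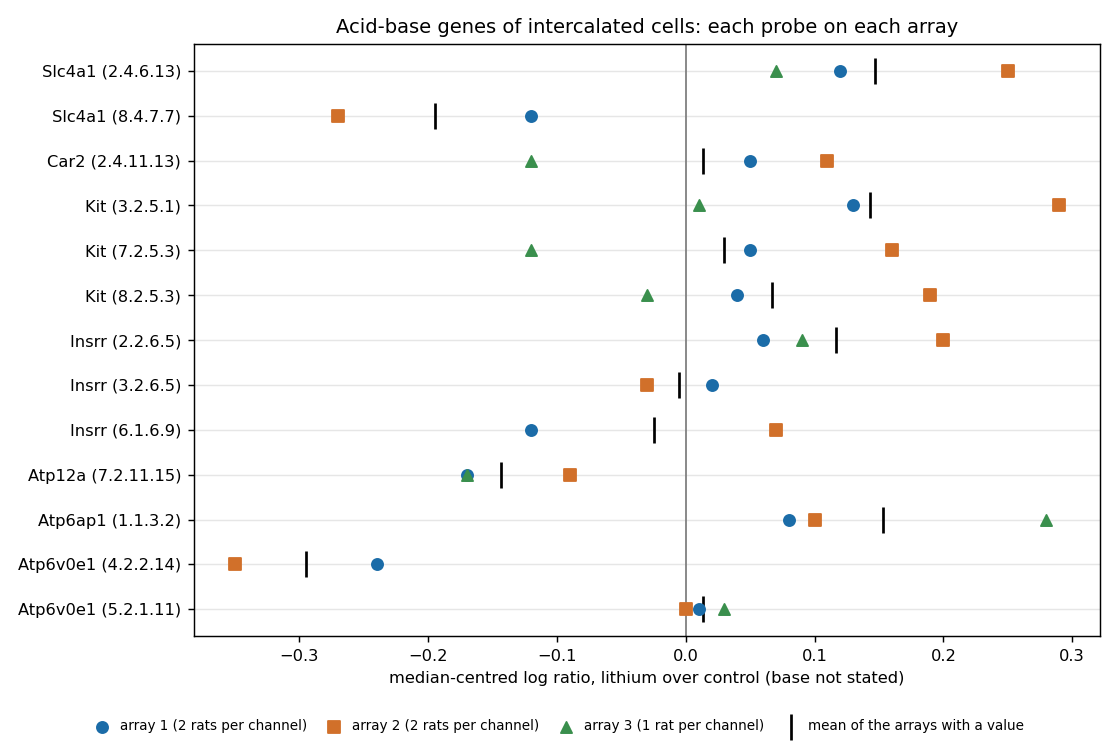
Median-centred log ratio of lithium over control (x axis, base not stated) for each of the 13 probes (rows, gene and probe ID), 1 point per array and a black bar at the mean of the arrays with a value. The Kit probes are highest on array 2 and lowest on array 3, and the paired probes of Slc4a1 lie on opposite sides of 0.

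Slc4a1 encodes the anion exchanger AE1, which carries bicarbonate across the basolateral membrane of type A cells and is also the band 3 protein of red blood cells. Probe 2.4.6.13 read 0.12, 0.25 and 0.07 on arrays 1, 2 and 3. All arrays were above 0 and array 2 was the highest: only 0.88% of the values on that array were as high. The mean was 0.15 ± 0.09 (SD, n = 3). Read in base 10 this is 1.4-fold and read in base 2 it is 1.11-fold, with a 95% interval of the log ratio from 0.03 to 0.26 and a limma adjusted p of 0.209. The second Slc4a1 probe, 8.4.7.7, read −0.12 and −0.27 on arrays 1 and 2 and was empty on array 3. The probes thus lay on opposite sides of 0, apart by 0.24 on array 1 and 0.52 on array 2, and were annotated to different GenBank records. Averaged over both probes the gene had a mean of 0.02 ± 0.04 (SD, n = 3, limma adjusted p = 0.833). That average mixes different probes across arrays. The direction of Slc4a1 therefore depends on the probe.

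The Slc4a1 probes differed more than most probe pairs on these arrays. Over arrays 1 and 2 their mean difference was 0.38, and 4.21% of the 1259 pairs of probes of 1 gene were at least as far apart. Most of these pairs, 804, were of the same GenBank record, with a median difference of 0.055. The 455 pairs of different records, as for Slc4a1, had a median of 0.125 and a 90th percentile of 0.33. The shares given here were not split by record. Pairs in which 1 probe was empty on array 3 were further apart than others, with a median difference of 0.15 over 296 pairs, against 0.055 over the 902 pairs with both probes measured there. Among the 296 like pairs, 13.5% differed by at least as much as those of Slc4a1. Probes empty on array 3 also read low elsewhere, with a median of −0.08 on array 1 and −0.18 on array 2, against 0.01 and 0.04 for probes with a value on array 3. The part of this in the low reading of probe 8.4.7.7 was not tested.

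**Figure D2:**
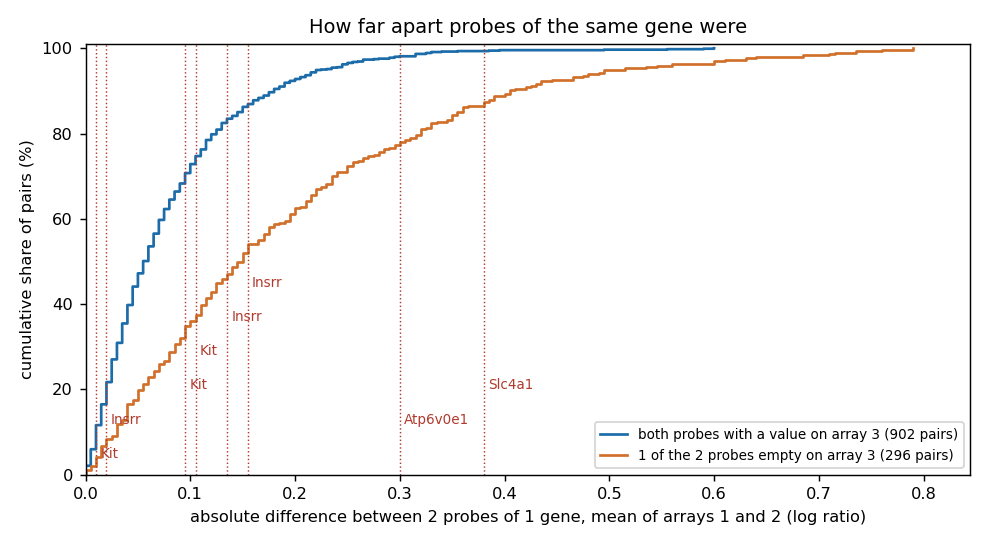
Cumulative share of pairs of probes of 1 gene (y axis, %) by the absolute difference of their mean log ratios over arrays 1 and 2 (x axis), for pairs with both probes measured on array 3 and pairs with 1 probe empty there. Pairs with both probes empty have no curve, and dotted lines mark all 8 pairs of Slc4a1, Atp6v0e1, Insrr and Kit. The Slc4a1 pair at 0.38 and the Atp6v0e1 pair at 0.3 lie furthest to the right.

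Car2, the cytosolic carbonic anhydrase II that supplies the protons and bicarbonate, differed in sign between arrays. Its probe read 0.05, 0.11 and −0.12 on arrays 1, 2 and 3. The mean was 0.013 ± 0.12 (SD, n = 3), with a 95% interval from −0.11 to 0.14 and a limma adjusted p of 0.93. In base 10 that interval runs from 0.772-fold to 1.38-fold, so a change anywhere in that range is compatible with these values. Read in base 2 the range would be narrower. The 3 other carbonic anhydrases on the array were Car3, a muscle form with a mean of −0.027, Car4, a membrane-anchored form of kidney tubules with 0.08, and Car5a, a mitochondrial form with 0.06. None of these 4 probes passed, against 0.259% of all probes tested, and their limma adjusted p-values ran from 0.396 to 0.93. Of the 4 means 3 were above 0 and the median was 0.037, against a median of 0.013 over all 4250 probes tested.

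Atp6ap1, the accessory subunit Ac45 that guides assembly and sorting of the V-ATPase, had the highest mean of the 9 tested probes. It read 0.08, 0.1 and 0.28 on arrays 1, 2 and 3. All were above 0, and array 3 stood apart, where 0.77% of values were as high. The mean was 0.15 ± 0.11 (SD, n = 3), 1.42-fold if the base is 10 and 1.11-fold if it is 2, with a 95% interval from 0.03 to 0.27 and a limma adjusted p of 0.215. Its probe lay in print block 1.1, whose median on array 3 was 0.12, level with block 1.4 as the highest of the 32 blocks on that array. Centred on the block medians, the probe read 0.08, 0.16 and 0.16, with a mean of 0.13 ± 0.05 (limma adjusted p = 0.151). The ratio thus stayed above 0 on every array, and the gap between array 3 and the others was smaller.

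Atp6v0e1, a small subunit of the membrane sector of the pump, was read differently by its probes. Probe 5.2.1.11 read 0.01, 0 and 0.03 on arrays 1, 2 and 3. That is a mean of 0.013 ± 0.015 (SD, n = 3), with a 95% interval from −0.08 to 0.11 and a limma adjusted p of 0.903. Probe 4.2.2.14, annotated to another GenBank record, read −0.24 and −0.35 on arrays 1 and 2 and was empty on array 3. These were the lowest values of any of the 13 probes on those arrays, and 5.82% and 7.71% of all values there were as low. In a fit of all 5575 probes with at least 2 values, its limma adjusted p was 0.114. As for Slc4a1, the probe that was empty on array 3 was the low one. The difference of 0.3 was matched or exceeded by 22.6% of the pairs with 1 such probe.

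Atp6ap1 and Atp6v0e1 belong to a pump that also acidifies lysosomes and endosomes of other cells, and its other measured subunits were divided. The list held 26 symbols, of which 7 genes with 8 probes were on the array. Atp6v1b1, the subunit typical of intercalated cells, was not analysed here. Among the membrane-sector subunits, Atp6v0a2 had a mean of 0.12 ± 0.06 (SD, n = 3, limma adjusted p = 0.242) and the proteolipid Atp6v0c one of 0.12 ± 0.06 (limma adjusted p = 0.244), and both were above 0 on every array. Atp6v0c lay in block 1.4, and centred on the block medians it read 0.08, 0.175 and −0.07 on arrays 1, 2 and 3, with a mean of 0.062. Atp6v0a1 read −0.08 and −0.2 on arrays 1 and 2 and was empty on array 3. The cytosolic-sector subunits Atp6v1b2 and Atp6v1f had means of −0.06 and −0.023, with limma adjusted p-values of 0.54 and 0.807. Of the 8 probes, those of Atp6ap1 and Atp6v0e1 included, 4 had means above 0 and 4 below, with a median of −0.005. Without Atp6ap1 and Atp6v0e1, 2 of 5 probes were above 0 and 3 below, with a median of −0.023. The median over all probes on the array was −0.0067. None of the 6 tested passed in either direction, against 0.259% of all probes tested.

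Atp12a, the catalytic subunit of the non-gastric H,K-ATPase, which exchanges protons for potassium, was the lowest of the 9 tested probes. It read −0.17, −0.09 and −0.17 on arrays 1, 2 and 3. All 3 arrays were below 0 with little spread between them. The mean was −0.14 ± 0.05 (SD, n = 3), a lithium-to-control ratio of 0.719 if the base is 10 and 0.905 if it is 2, with a 95% interval of the log ratio from −0.24 to −0.04. It had the smallest adjusted p of the 9 (limma adjusted p = 0.187), and 5.01% of all tested probes had a mean as low. Its print block 7.2 had medians of −0.03, 0 and −0.06 on the 3 arrays, and centred on these the mean was −0.11 ± 0.03 (limma adjusted p = 0.169).

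The relatives of Atp12a did not move one way. The gastric beta subunit Atp4b read −0.18 and 0.08 on arrays 1 and 2 and was empty on array 3. The Na,K-ATPase beta subunit Atp1b1 had a mean of 0.11 ± 0.07 (SD, n = 3, limma adjusted p = 0.286). Of the small FXYD proteins that modulate the Na,K-ATPase, Fxyd4 had a mean of 0.14 ± 0.04 (limma adjusted p = 0.191) and Fxyd2 one of −0.17 ± 0.13 (limma adjusted p = 0.198). Of the 9 probes in this list, Atp12a included, 4 had means above 0, 4 had means below 0 and 1 was at 0. Without Atp12a, 4 of 8 were above 0 and 3 below, against 46.9% above 0 over all probes on the array. None of the 6 tested passed, against 0.259% of all probes tested.

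**Figure D3:**
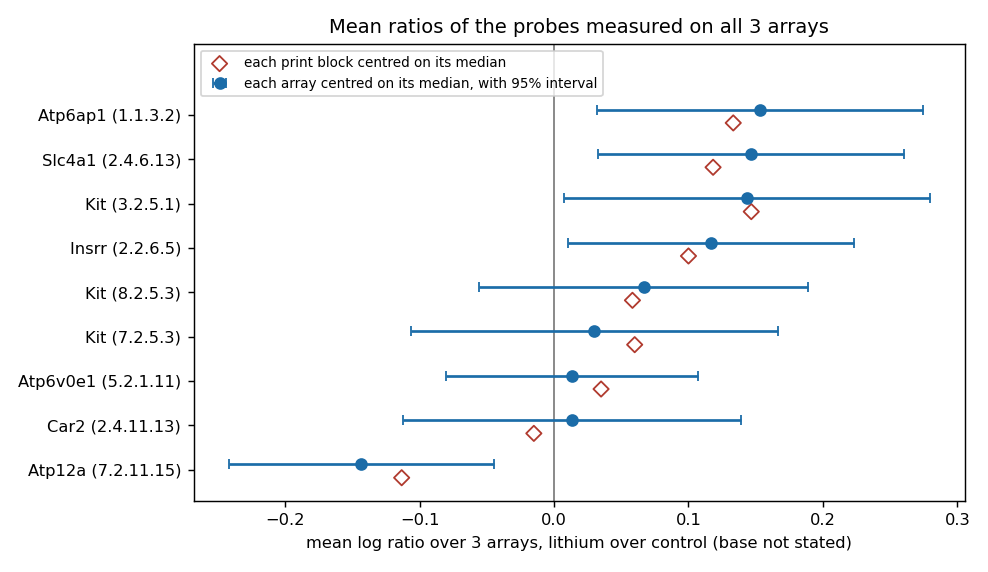
Mean log ratio over 3 arrays (x axis, base not stated) of the 9 probes with a value on every array, with the 95% limma interval after centring each array (filled circles) and the mean after centring each print block (open diamonds). The intervals of Atp6ap1, Slc4a1, Insrr, Atp12a and 1 Kit probe leave out 0 before adjustment over all probes, and the Car2 mean changes sign with the centring, from 0.013 for each array to −0.015 for each print block.

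Kit, the stem cell factor receptor, which is found on intercalated cells of the mouse and on mast cells, was read by 3 probes of the same GenBank record. Probe 3.2.5.1 read 0.13, 0.29 and 0.01 on arrays 1, 2 and 3. Probe 8.2.5.3 read 0.04, 0.19 and −0.03, and probe 7.2.5.3 read 0.05, 0.16 and −0.12. The probes ordered the arrays alike, with array 2 highest and array 3 lowest, and on array 2 only 0.334% of values were as high as that of probe 3.2.5.1. Within an array they spanned 0.09, 0.13 and 0.13, while the mean of the 3 was 0.073 on array 1, 0.21 on array 2 and −0.047 on array 3. The spread of Kit thus lay more between arrays than between probes. The means of the 3 probes were 0.14 ± 0.14, 0.067 ± 0.11 and 0.03 ± 0.14 in the same order (SD, n = 3), with limma adjusted p-values of 0.268, 0.554 and 0.832. Averaged over its probes Kit stood at 0.08 ± 0.13 (limma adjusted p = 0.491).

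Insrr, the insulin receptor-related receptor, which responds to alkaline pH, had 1 probe above 0 on every array. Probe 2.2.6.5 read 0.06, 0.2 and 0.09 on arrays 1, 2 and 3. Its mean was 0.12 ± 0.07 (SD, n = 3), 1.31-fold if the base is 10 and 1.08-fold if it is 2, with a 95% interval from 0.01 to 0.22 and a limma adjusted p of 0.256. The other probes, annotated to other GenBank records, were empty on array 3 and lay around 0. Probe 3.2.6.5 read 0.02 and −0.03 on arrays 1 and 2, and probe 6.1.6.9 read −0.12 and 0.07. Neither gave the sign of the first probe on both arrays, and averaged over the 3 probes the gene stood at 0.052 ± 0.06 (SD, n = 3, limma adjusted p = 0.56).

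The ligands and relatives of these receptors were spread around 0. Kitlg, the ligand of Kit, read 0.04, −0.12 and −0.21 on arrays 1, 2 and 3 by one probe and 0.1, 0.07 and −0.13 by another. For Kitlg as for Kit, array 3 was the lowest, but Kitlg was highest on array 1 and Kit on array 2. The share of all probes with array 3 lowest was not counted. Insr and Igf1r, the closest relatives of Insrr, read −0.02, 0.08 and 0.08 and 0.07, −0.05 and −0.11. The adaptor Irs2 had a mean of 0.11 ± 0.04 at the probe with the smallest p (SD, n = 3, limma adjusted p = 0.247). Its other probes had means of 0.04 and −0.057, and of −0.19 at the probe empty on array 3. Pdgfra, of the Kit family, had a mean of −0.14 ± 0.19 (limma adjusted p = 0.365). Outside Kit and Insrr, 7 of the 15 probes of these families had means above 0 and 8 below, against 46.9% above 0 over all probes on the array. None of the 14 tested passed, against 0.259% of all probes tested.

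Ordered by mean, the 9 tested probes mostly lay close to their neighbours. Sorting by the same means makes neighbours close, so small steps do not say whether the genes differ. The order was Atp6ap1, Slc4a1, Kit (3.2.5.1), Insrr, Kit (8.2.5.3), Kit (7.2.5.3), Car2 and Atp6v0e1 at the same mean, and Atp12a. Of the 8 steps between neighbours 1 was larger than the SD of that difference over the 3 arrays. That was the step of 0.16 ± 0.06 from Atp6v0e1 down to Atp12a, which was lower on all 3 arrays. The median of the 9 means was 0.067 and 8 were above 0, against a median of 0.013 and 57.1% above 0 over all 4250 probes tested. Over all 13 probes, those empty on array 3 included, the median was 0.013 and 8 were above 0, against a median of −0.0067 and 46.9% above 0 over all probes on the array.

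Other genes of the acid-base system were also divided. Nherf1, a scaffold that binds the Na/H exchanger Slc9a3, had a mean of 0.17 ± 0.04 (SD, n = 3, limma adjusted p = 0.146), and its probe shared block 1.1 with Atp6ap1. Centred on the block medians it read 0.14, 0.21 and 0.1 on arrays 1, 2 and 3, with a mean of 0.15. The sodium bicarbonate cotransporter Slc4a7 had a mean of −0.16 ± 0.14 (limma adjusted p = 0.244) at probe 7.2.4.1, and its second probe read −0.05, −0.05 and 0.03. Slc4a2, the anion exchanger AE2, had a mean of 0.037 ± 0.08 (limma adjusted p = 0.727). The type B cell exchanger pendrin, Slc26a4, read −0.25 and −0.2 on arrays 1 and 2 and was empty on array 3. Aqp6, an anion-permeable aquaporin of type A cell vesicles, read 0.06, 0.27 and −0.13 on arrays 1, 2 and 3. Of the 16 exchanger probes, those of Slc4a1 included, 5 had means above 0, 10 had means below 0 and 1 was at 0. Their median was −0.017, and none of the 9 tested passed. Without Slc4a1, 4 of 14 probes were above 0 and 9 below, with a median of −0.017. Over all probes on the array 46.9% were above 0 with a median of −0.0067, and 0.259% of all probes tested passed. Among the genes of ammonium handling Gls2, the liver-type glutaminase, had a mean of 0.32 ± 0.07 (limma adjusted p = 0.051), and none of the 8 tested probes passed.

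**Figure D4:**
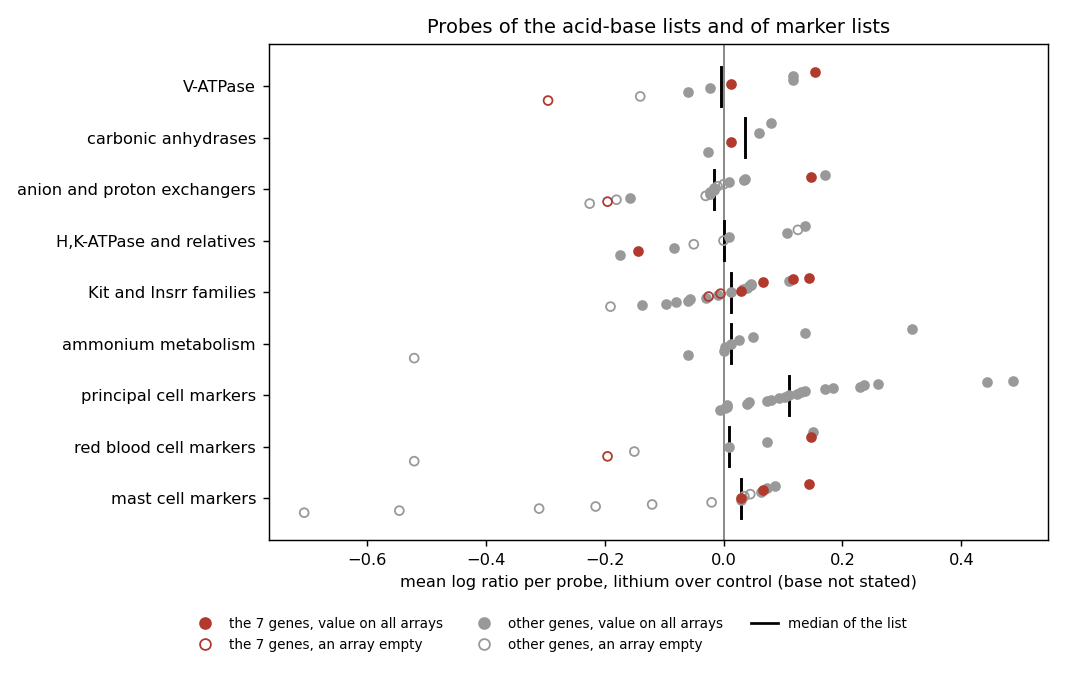
Mean log ratio per probe (x axis, base not stated) for 6 acid-base lists and 3 marker lists (rows), with the 7 genes in red, probes with an empty array as open circles and a black bar at the median of each list. The red points lie on both sides of 0. The row of principal cell markers, which also holds inner medullary collecting duct cell markers, has a median of 0.11.

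Markers of principal and inner medullary collecting duct cells lay mostly above 0 on the same arrays. Kcnj1 and Slc14a2 on this list are also on the list of limb markers. Of their 21 probes 20 had means above 0, with a median of 0.11, against 57.1% above 0 among all probes tested. All 21 were measured on every array, and 2 passed, against 0.259% of all probes tested. The 2 were Hsd11b2 (limma adjusted p = 0.0217) and Krt19 (limma adjusted p = 0.0433). Of the 12 probes on the list of intercalated cell markers, 10 of them of Slc4a1, Car2, Kit, Insrr and Atp12a, 7 had means above 0 with a median of 0.022. Among the 8 of these with a value on all 3 arrays, 7 were above 0 with a median of 0.067, and none passed. A difference between the lists was not tested, and the lists were chosen with earlier results of these data known. Slc4a1 is shared with red blood cells, whose alpha globin Hba-a1 read 0.16, 0.09 and 0.2 on arrays 1, 2 and 3 and whose heme enzyme Alas2 read −0.06 and −0.24 on arrays 1 and 2. Without Slc4a1 that list had a median of 0.01 over 5 probes, of which 3 had means above 0. The 3 of these with a value on all 3 arrays were all above 0, with a median of 0.073. Kit is shared with mast cells, whose carboxypeptidase Cpa3 read −0.76 and −0.65 on arrays 1 and 2 and whose tryptase Tpsb2 read 0.08, 0.1 and 0.04. Without Kit that list had a median of 0.005 over 12 probes, of which 6 had means above 0. The 4 of these with a value on all 3 arrays were all above 0, with a median of 0.068. The part of either cell type in the ratios of Slc4a1 and Kit was not tested.

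The genes whose ratios were most like those of the leading probes were sought by distance. Likeness was the Euclidean distance over the 3 arrays to each of 3817 named probes of other genes. For Atp12a the nearest were Ctsl at 0.022, Gadd45g at 0.03 and Dlg3 at 0.036. For Slc4a1 (2.4.6.13) they were Hipk3 at 0.014, Arg2 at 0.03 and Lrp2 at 0.033, and for Atp6ap1 they were Psma3 at 0.032, Rplp2 at 0.036 and B4galt6 at 0.041. Within a distance of 0.05 lay 15 probes for Atp12a (0.393%), 13 for Slc4a1 (0.341%) and 7 for Atp6ap1 (0.183%).

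The calls depended on how the arrays were weighted. With array weights estimated by limma, array 1 counted 4.69, array 2 counted 0.36 and array 3 counted 0.60. Then 4 of the 9 probes passed, with adjusted p-values of 0.00349 for Atp12a at −0.16, 0.0133 for Slc4a1 at 0.12, 0.0176 for Kit at 0.13 and 0.0435 for Atp6ap1 at 0.10. In that fit 1252 of all 4250 probes passed as well. In the 10 other alternatives, 0 of the 7 genes passed at any probe. With 1 array left out, 0 of all 4250 probes passed, so those fits cannot inform on these genes. In the remaining ones few probes passed in all, from 13 with the probes of 1 gene averaged to 135 with a robust prior.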

How the data were processed

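The authors deposited 1 table of log ratios with 2 decimals, handled as scores because the log base is unknown. Per the labels, channel 1 is lithium in red. The sources used here do not give the scanner, background correction, normalization, filter or direction. Deposited medians were −0.02, −0.04 and 0.00, so centring before deposit is unknown, and 178, 78 and 1473 probes were empty on arrays 1, 2 and 3. Probe names came from the platform annotation, which can be old: 5064 probes had 1 symbol, 9 several and 687 were not listed. A gene table of assembly GRCr8 held 5043 of these gene IDs, and 0 symbols needed an update.

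Each array was centred on its median. The 4250 probes on all 3 arrays were tested one by one with limma 3.58.1 in R 4.3.3 (intercept-only lmFit, eBayes, two-sided, Benjamini-Hochberg, threshold 0.05). The fit was tested on simulated data. Probes were kept apart because averaging mixes different probes across arrays. The labels give different rats per array, so p-values measure the spread between pools or animals. Members, lists and tests were chosen with earlier results of these data known. Named were all 13 probes, every measured V-ATPase and carbonic anhydrase gene, up to 4 genes with the smallest p of each other list, not all of which are given, and the 3 nearest probes of the 3 members with the smallest p. Kitlg, Insr, Igf1r, Atp4b, Slc26a4, Aqp6, Alas2 and Cpa3 were named after their values were seen. Lists of limb, proximal tubule, endothelial and immune markers were used for no statement beyond their medians of 0.042, 0.048, 0.02 and 0. Tables were made with pandas 2.3.3 and numpy 2.4.6 under Python 3.11.15, and figures with matplotlib 3.10.9.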

Additional observations from a re-analysis of the deposited data

How the results depend on the processing

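Over 11 alternatives, the mean ratio of Slc4a1 (2.4.6.13), Kit (3.2.5.1 and 8.2.5.3), Insrr (2.2.6.5) and Atp6ap1 stayed above 0, and that of Atp12a and of Atp6v0e1 (4.2.2.14) below 0. Neither the robust prior nor the inclusion of probes on at least 2 arrays can change the mean of a probe. Averaging probes leaves Atp6ap1 and Atp12a, with 1 probe each, unchanged. For Atp6v0e1 (4.2.2.14), empty on array 3, array weights and leaving out array 3 also returned −0.295. Those settings say nothing about the stability of these signs. The means of Car2 and Atp6v0e1 (5.2.1.11), and with them the median over the 13 probes, were all −0.0067 without centring and −0.0033 when centred on the probes with a value on all arrays. Car2 was −0.015 with print blocks centred, −0.005 without array 1 and −0.035 without array 2, and 0.08 without array 3. Kit (7.2.5.3) was also −0.035 without array 2. With 1 array left out, Kit (7.2.5.3) ranged up to 0.105, the Insrr probe 3.2.6.5 from −0.03 to 0.02 and the Insrr probe 6.1.6.9 from −0.12 to 0.07. Averaging the probes of a gene gave 0.02 for Slc4a1, 0.052 for Insrr and −0.087 for Atp6v0e1, the opposite sign of the probes 8.4.7.7, 3.2.6.5, 6.1.6.9 and 5.2.1.11. The median over the 13 probes was between 0.005 and 0.08 with 1 array left out.

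The number of all probes past the threshold was 11 in the reported fit, 24 without centring, 20 with centring on probes measured on all arrays, 22 with print blocks centred, 115 with arrays scaled to the same spread, 43 with probes on at least 2 arrays, 135 with a robust prior and 1252 with array weights, where 4 of the 9 probes of these genes passed. With any 1 array left out it was 0, while at an unadjusted p under 0.05 the counts were 183 without array 1, 668 without array 2 and 460 without array 3. Of the 9 probes of these genes, 0, 1 and 2 were among them, in the same order. These fits have 2 arrays, and a missed threshold there says nothing about stability. No paired analysis was possible because each array already sets lithium against control and there is 1 group of ratios. Signal over background was not used here.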
